A study of Oryza sativa with 45 samples.

Results

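The mRNAs of the light receptors and of the GLK greening regulators were followed in rice seedlings that established underwater. The members were fixed by their gene identifiers, namely the phytochromes PHYA (OS03G0719800), PHYB (OS03G0309200) and PHYC (OS03G0752100), the cryptochromes CRY1a (OS02G0573200), CRY1b (OS04G0452100) and CRY2 (OS02G0625000), and the transcription factors GLK1 (OS06G0348800) and GLK2 (OS01G0239000). These are 8 of the 35677 genes in the count table, and all 8 passed the filter on low counts that kept 26180 genes. The count table holds identifiers only. The member names came with the list of identifiers. For GLK2 alone a description was also found in the datasets of the study, which were at hand in part, as a member of the family of GOLDEN2-like factors. The study also names a GLK1 gene, under a locus identifier of another system.

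Phytochromes are receptors of red and far-red light, and cryptochromes are receptors of blue light. In seedlings they lead from growth in the dark to greening, through a cascade in which HY5 promotes light responses and the PIF-like factors, such as PIL15 of rice, hold them back. GLK factors act on the nuclear genes for chlorophyll synthesis and for the light-harvesting antenna of the chloroplast. A rice seed that germinates underwater extends its coleoptile, the sheath around the young shoot, before a green leaf develops.

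The genotypes were the pyramided line IR64(AG1,SUB1), IR64(SUB1), IR64(AG1) and IR64, an indica cultivar that is the recurrent parent of the others. Each of the 3 derived lines is 1 near-isogenic introgression line, in which AG1 comes from Khao Hlan On and SUB1 from FR13A, so that the effect of a locus cannot be told apart from that of other donor segments in the line. Dry seeds of all 4 were sown in soil and kept submerged under ambient light, and embryo, coleoptile and shoot tissue pooled from many seedlings was taken at 2, 4, 8 and 14 d. The labels call the tissue embryo at 2 d and coleoptile on the later days, so time, stage and tissue makeup cannot be told apart. No group was grown in air. The 16 groups of genotype and day hold 45 libraries, with 2 in IR64(AG1,SUB1) at 2 d, 2 in IR64(AG1,SUB1) at 4 d, 2 in IR64(SUB1) at 8 d and 3 in each other group.

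The total count per library was between 12256409 and 24870831. The tissue changed over the days in its markers. The summed level of 3 green leaf genes (2 antenna genes and the glycolate oxidase GLO1) was 1.89 to 9.79 CPM (counts scaled to library size) at 2 d, 1.08 to 12.1 CPM at 4 d, 785 to 3601 CPM at 8 d and 1559 to 6053 CPM at 14 d. GLO1 was a small part of this sum, at 4.02 to 17.8 CPM at 8 d and 122 to 157 CPM at 14 d. The 2 antenna genes are also among the greening genes read below. Of 6 storage protein genes, a list chosen later, 5 summed to 118 to 405 CPM at 2 d, 73.6 to 135 CPM at 4 d, 5.08 to 20.8 CPM at 8 d and 0.203 to 3.04 CPM at 14 d. Among these 5, OS09G0552600 stayed near the floor and did not follow the sum, with medians of 0.108, 0.0769, 0.0827 and 0.170 CPM on the 4 days. The remaining gene of the 6, a patatin-like one (OS08G0477500), was set apart after its values were seen. It went the other way from the sum, with 0 counts in all 22 libraries of 2 and 4 d, 0 to 3.84 CPM at 8 d and 1.53 to 4.26 CPM at 14 d. As these are bulk samples, a change in the number of cells of a type cannot be told apart from a change in RNA per cell. The part of these markers in the results below was not tested.

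Over the 14 d the members divided into those with a wide and those with a narrow range of group means. GLK1 had the widest range of group means, 265-fold between IR64(AG1) at 14 d and IR64(SUB1) at 2 d, and GLK2 came next with 124-fold between IR64(AG1) at 14 d and IR64(AG1,SUB1) at 2 d. That group has 2 libraries, with 13 and 2 counts of GLK2, and the range was 69.8-fold without the library of 2 counts (replicate 3) and 550-fold without the other (replicate 2). The lowest group of GLK1 held 3 to 9 counts per library, and leaving out 1 of them gave ranges of 227-fold to 372-fold. CRY1a ranged over 23.7-fold and CRY1b over 17.6-fold, PHYB over 2.21-fold, PHYA over 1.76-fold, PHYC over 1.54-fold and CRY2 over 1.34-fold. For CRY1b the range was 14.0-fold or 25.7-fold without 1 of the 2 libraries of its lowest group, IR64(AG1,SUB1) at 2 d. A gene was called where the Benjamini-Hochberg FDR of the edgeR quasi-likelihood test was under 0.05 and the log2 fold change above 1 or below -1. The FDR was adjusted over all 26180 genes tested, and levels are CPM with TMM library sizes, which are not corrected for gene length and are compared within a gene only.

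**Figure D1:**
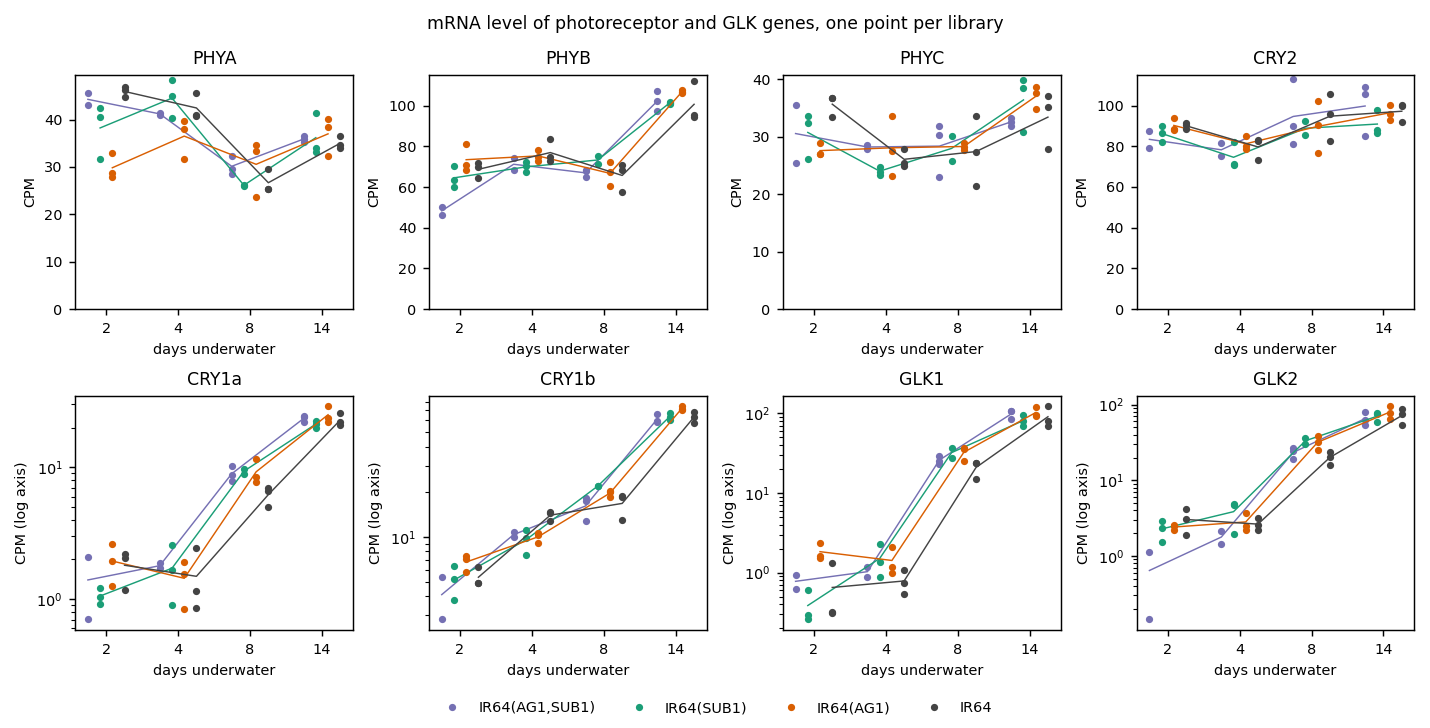
Level of each member in CPM on 2, 4, 8 and 14 d underwater, on axes from 0 for PHYA, PHYB, PHYC and CRY2 and on log axes for CRY1a, CRY1b, GLK1 and GLK2. Each point is 1 library, lines join the group means of a genotype, and the ranges of 265-fold for GLK1 and 1.34-fold for CRY2 can be read from the steep and flat panels.

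Between 2 and 4 d, 3 of the 32 tests of a member in a genotype were called, all higher at 4 d, against 6.8% called higher over all genes. CRY1b, a blue-light receptor, gave 2 of the 3. In IR64(AG1,SUB1) it had 9.98 and 10.7 CPM at 4 d, against 2.81 and 5.42 CPM at 2 d. In IR64 it had 14.5, 14.7 and 12.8 CPM at 4 d, against 4.95, 4.89 and 6.29 CPM at 2 d. No library at 4 d overlapped those at 2 d in any genotype, with 7.61 to 14.7 CPM over the 11 libraries at 4 d and 2.81 to 7.46 CPM over the 11 at 2 d. The pyramided line had a log2 fold change of 1.31 in CRY1b (standard error 0.23, FDR 4.79e-05), which was 0.94 without its replicate 2 of 2 d, and IR64 had 1.38 (standard error 0.18, FDR 1.65e-07). The other lines passed the FDR threshold below the fold threshold, with 0.88 for IR64(SUB1), and 0.57 for IR64(AG1) (FDR 0.0167, and 0.113 and 0.0612 without replicate 1 of 2 d or of 4 d, edgeR). Without replicate 3 of 2 d or of 4 d, IR64(SUB1) was called too, with log2 fold changes of 1.05 and 1.02.

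The remaining call between 2 and 4 d was GLK1 in IR64(SUB1), from few counts. GLK1 had 26, 10 and 35 counts at 4 d in IR64(SUB1), against 6, 3 and 9 counts at 2 d. This is 1.35, 0.889 and 2.28 CPM at 4 d, against 0.292, 0.258 and 0.608 CPM at 2 d, with no overlap and a log2 fold change of 1.99 (standard error 0.53, FDR 0.00341, edgeR). In the other genotypes the log2 change of GLK1 lay between -0.31 and 0.42 and missed the threshold, and the difference of IR64(SUB1) from IR64 in this change, 1.74 on the log2 scale, did not pass either (FDR 0.432). GLK2 had no call in this interval, with a log2 fold change of 1.5 in the pyramided line (FDR 0.0831) that was called with DESeq2 (FDR 0.0207) and without replicate 2 of that line at 2 d (FDR 0.0148), and one of 0.66 in IR64(SUB1) that was called without replicate 1 of 4 d (1.02, FDR 0.0243). Over all members 7 tests passed the FDR threshold, against 26% over all genes. PHYB rose below the fold threshold in IR64(AG1,SUB1) only among the genotypes (log2 fold change 0.56, FDR 0.00014), and PHYC fell by 0.45 on the log2 scale in IR64 (FDR 0.0189, edgeR), which was lost when any of 4 single libraries was left out (FDR at most 0.0675). The test of the difference between the pyramided line and IR64 in the change of PHYB gave 0.40 on the log2 scale (FDR 0.15), so the rise was not shown to be particular to that line.

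Between 4 and 8 d both GLK genes and CRY1a rose in all 4 genotypes. In total 13 of the 32 tests were called, all higher at 8 d, against 23.3% called higher over all genes. GLK1 had 29.3, 23.1 and 25.2 CPM at 8 d in IR64(AG1,SUB1), against 0.891 and 1.16 CPM at 4 d. It had 36.7 and 27.5 CPM at 8 d in IR64(SUB1), against 1.35, 0.889 and 2.28 CPM at 4 d. In IR64(AG1), GLK1 had 25.1, 36.9 and 35.2 CPM at 8 d, against 0.976, 1.19 and 2.09 CPM at 4 d. In IR64 it had 15.2, 24.0 and 23.6 CPM at 8 d, against 0.537, 1.08 and 0.741 CPM at 4 d.

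Every library at 8 d lay above every library at 4 d for GLK1. The rise was 20.7-fold to 27.3-fold over the genotypes, with log2 fold changes from 4.37 in IR64(SUB1) (standard error 0.31) to 4.77 in IR64 (standard error 0.34), and the highest of the 4 FDR values was 7.18e-13 (edgeR). No line differed from IR64 in the size of this rise past the FDR threshold.

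GLK2, the paralog of GLK1, rose by 7.61-fold to 13.6-fold, again without overlap. In IR64(AG1,SUB1) it had 26.9, 19.1 and 24.1 CPM at 8 d, against 2.14 and 1.42 CPM at 4 d. In IR64(SUB1) it had 36.3 and 30.3 CPM at 8 d, against 1.97, 4.89 and 4.68 CPM at 4 d. In IR64(AG1) it had 24.8, 31.9 and 38.7 CPM at 8 d, against 3.73, 2.52 and 2.2 CPM at 4 d.

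In IR64, GLK2 had 15.9, 24.0 and 20.3 CPM at 8 d, against 2.53, 3.15 and 2.22 CPM at 4 d. The log2 fold changes of GLK2 were 3.77 in IR64(AG1,SUB1), 3.16 in IR64(SUB1), 3.49 in IR64(AG1) and 2.93 in IR64, with standard errors of 0.29 to 0.37 and a highest FDR of 1.11e-10 (edgeR). The library ratio of GLK1 to GLK2 changed over the same days. Over the libraries its median was 0.432 on day 2, 0.417 on day 4, 1.01 on day 8 and 1.26 on day 14. The ratio is not corrected for gene length, so its change over the days can be read and its value cannot. At 14 d it ran from 1.08 to 1.70 over 12 libraries and at 4 d from 0.182 to 0.951 over 11 libraries, without overlap. At 2 d it ran from 0.0755 to 6.5 over 11 libraries, which overlapped every later day, with as few as 2 counts of GLK2 in a library.

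CRY1a was at 4.99 to 11.6 CPM over the 11 libraries at 8 d, against 0.841 to 2.58 CPM over the 11 at 4 d. It rose 4.26-fold to 6.28-fold, with log2 fold changes of 2.32 in IR64(AG1,SUB1), 2.48 in IR64(SUB1), 2.65 in IR64(AG1) and 2.09 in IR64 and a highest FDR of 7.36e-07 (edgeR). CRY1b was called in this interval in IR64(SUB1). There it had 21.9 and 21.8 CPM at 8 d, against 11.2, 9.87 and 7.61 CPM at 4 d, a log2 fold change of 1.19 (standard error 0.18, FDR 3.54e-07). The change was 0.63 in IR64(AG1,SUB1) (FDR 0.00447), 0.97 in IR64(AG1) (FDR 2.41e-06) and 0.26 in IR64 (FDR 0.169, edgeR). The 0.97 of IR64(AG1) lay just under the fold threshold and was called with RLE scaling (1.08), with DESeq2 and without replicate 1 of 4 d (1.02) or of 8 d (1.02).

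The difference between IR64(SUB1) and IR64 in the change of CRY1b from 4 to 8 d was 0.93 on the log2 scale (standard error 0.24, FDR 0.0447, edgeR). It was the only one of 72 tests of a line against IR64 in a change between days that passed the FDR threshold, against 0.452% over all genes, and none of the 72 was called, against 0.307% over all genes. At an unadjusted p under 0.05 there were 12. With DESeq2 2 passed the FDR threshold and 0 were called. With the replicate number as a block 0 passed, so the CRY1b difference was lost. The FDR of the CRY1b difference ran from 0.00539 to 0.209 over 17 alternatives and missed the threshold in 11 of them, 8 of which left out 1 library: any library of IR64 at 4 d, replicate 1 of IR64 at 8 d (0.76, FDR 0.19), replicate 2 or 3 of IR64(SUB1) at 4 d, or either library of IR64(SUB1) at 8 d. IR64 stood apart at 4 d here, with 12.8 to 14.7 CPM of CRY1b, against 7.61 to 11.2 CPM in the 8 libraries of the 3 lines.

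PHYA, the phytochrome that responds to very weak light, fell between 4 and 8 d in 3 of the 4 genotypes. In IR64(AG1,SUB1) it had 28.5, 32.3 and 29.6 CPM at 8 d, against 41.0 and 41.4 CPM at 4 d. In IR64(SUB1) it had 26.0 and 26.2 CPM at 8 d, against 40.4, 48.3 and 44.9 CPM at 4 d, and in IR64 it had 25.2, 25.2 and 29.5 CPM at 8 d, against 40.8, 45.5 and 41.0 CPM at 4 d. These groups did not overlap. PHYA fell by 0.45 on the log2 scale in IR64(AG1,SUB1) (FDR 0.0045, and 0.0937 with 5 counts added and the likelihood ratio test), by 0.77 in IR64(SUB1) (FDR 8.04e-06) and by 0.67 in IR64 (FDR 1.1e-05, edgeR). IR64(AG1) had 23.7, 33.3 and 34.6 CPM at 8 d, against 31.8, 39.7 and 38.0 CPM at 4 d, which overlap, and a log2 fold change of -0.26 (FDR 0.0634).

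In all, 4 of the 32 tests passed the FDR threshold as lower at 8 d, against 24.8% over all genes, and 16 as higher, against 30.9%. The fourth lower one was PHYB in IR64, with a log2 fold change of -0.23 (FDR 0.0237). With the RLE scaling factors its FDR was 0.128, with DESeq2 0.13 and with 5 counts added 0.995. Leaving out replicate 3 of IR64 at 4 d gave -0.17 (FDR 0.144) and leaving out replicate 1 of IR64 at 8 d gave -0.12 (FDR 0.286). RLE scaling raised the median log2 fold change of all genes in this interval by 0.10 in IR64(AG1) and by 0.11 in IR64(SUB1), and moved it by under 0.1 in the other comparisons. PHYA in IR64(SUB1) kept an FDR of at most 0.00105 over its 11 alternatives.

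**Figure D2:**
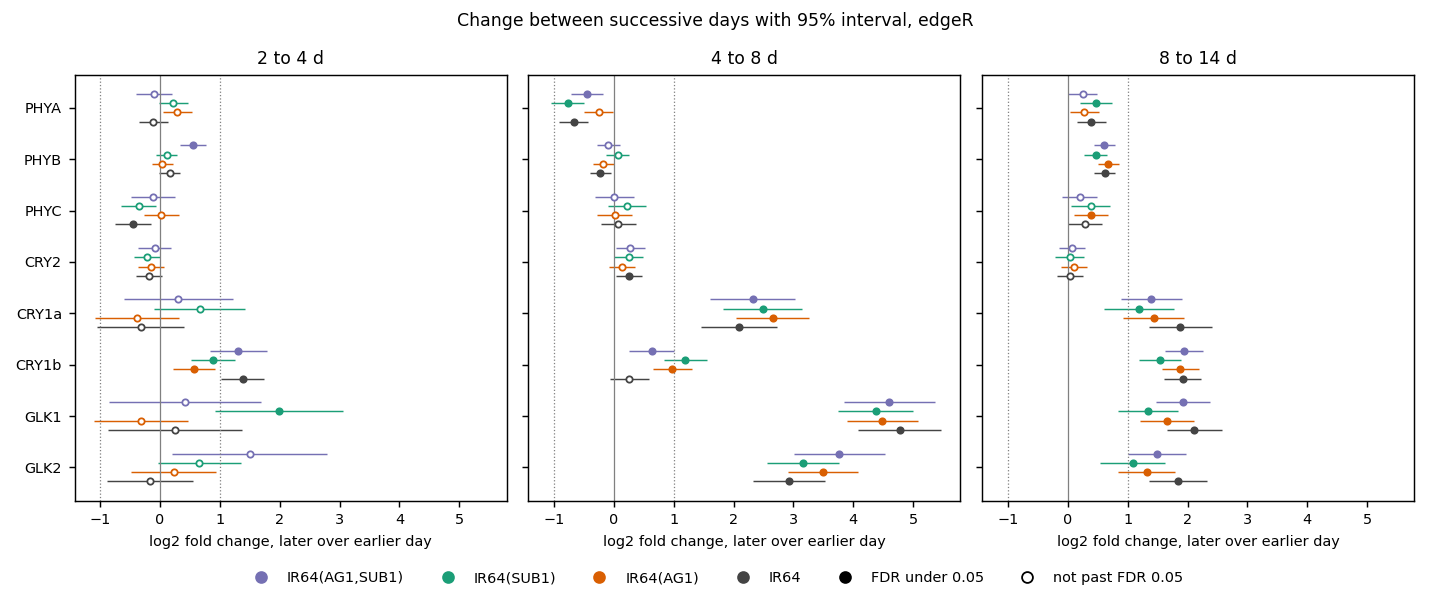
Log2 fold change of each member, later over earlier day, with its 95% interval for 2 to 4 d, 4 to 8 d and 8 to 14 d in each genotype. Filled points passed an FDR of 0.05, dotted lines mark a log2 fold change of -1 and 1, and GLK1 stands at 4.37 to 4.77 in the middle panel while the intervals of CRY2 stay inside the dotted lines throughout.

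Between 8 and 14 d 4 genes, CRY1a, CRY1b, GLK1 and GLK2, were each called higher in all 4 genotypes, which made 16 calls of 32, against 13.4% called higher over all genes. GLK1 had 105, 106 and 84.2 CPM at 14 d in IR64(AG1,SUB1), 80.7, 94.4 and 68.7 CPM in IR64(SUB1), 119, 94.7 and 93.3 CPM in IR64(AG1), and 123, 80.6 and 68.7 CPM in IR64. The lowest library at 14 d, 68.7 CPM, was above the highest at 8 d, 36.9 CPM. The log2 fold changes of GLK1 were 1.93 in IR64(AG1,SUB1), 1.34 in IR64(SUB1), 1.66 in IR64(AG1) and 2.11 in IR64, with a highest FDR of 4.24e-05 (edgeR).

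GLK2 had 79.7, 62.1 and 54.5 CPM at 14 d in IR64(AG1,SUB1), 74.8, 77.9 and 58.6 CPM in IR64(SUB1), 95.1, 78.1 and 65.4 CPM in IR64(AG1), and 86.3, 74.7 and 53.9 CPM in IR64. The groups of a genotype at 8 and 14 d did not overlap. The log2 fold changes of GLK2 were 1.49 in IR64(AG1,SUB1), 1.08 in IR64(SUB1), 1.32 in IR64(AG1) and 1.84 in IR64. The smallest, in IR64(SUB1), had a standard error of 0.27, an FDR of 0.00138 and a 95% interval from 0.54 to 1.62 (edgeR), and the log2 fold change was 0.96, under the fold threshold, without replicate 3 of 8 d.

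Both cryptochrome 1 genes rose in this interval. CRY1b was at 58.0 to 74.6 CPM over the 12 libraries at 14 d, against 12.8 to 21.9 CPM over the 11 at 8 d, a rise of 2.91-fold to 3.83-fold. CRY1a was at 20.0 to 29.1 CPM at 14 d, against 4.99 to 11.6 CPM at 8 d, a rise of 2.28-fold to 3.68-fold. PHYB, the main phytochrome of green tissue, rose in all 4 genotypes without reaching the fold threshold. It was at 94.7 to 112 CPM at 14 d, against 57.8 to 75.3 CPM at 8 d, with no overlap and log2 fold changes of 0.61 in IR64(AG1,SUB1), 0.47 in IR64(SUB1), 0.68 in IR64(AG1) and 0.62 in IR64 (highest FDR 0.000161, edgeR).

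PHYA and PHYC moved less between 8 and 14 d. PHYA passed the FDR threshold in IR64(SUB1) (log2 fold change 0.47, FDR 0.00534) and IR64 (0.39, FDR 0.00566, and 0.057 without replicate 1 of IR64 at 8 d), and PHYC in IR64(AG1) (0.39, FDR 0.024, edgeR, and at most 0.0729 in the 5 of 12 alternatives where it was lost). In all, 23 of the 32 tests passed the FDR threshold, all higher at 14 d, against 22.8% over all genes. CRY2 was the member with the least change. Its median was 88.6 CPM on day 2, 80.1 CPM on day 4, 90.3 CPM on day 8 and 96.8 CPM on day 14. The library ranges overlapped between all successive days, and 1 of its 12 tests between days passed the FDR threshold, a rise of 0.25 on the log2 scale in IR64 between 4 and 8 d (FDR 0.0452), which missed the threshold in 7 of 12 alternatives, including the omission of any library of IR64 at 4 d. Between 8 and 14 d, the 95% intervals of CRY2 lay between -0.21 and 0.32 over the 4 genotypes (edgeR).

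The order of the 16 group means separated into steps for some members and not for others. For GLK1 the 4 groups at 14 d came first, the 4 at 8 d next and the 8 of 2 and 4 d last, and the neighbouring groups overlapped in 13 of 15 places. The gaps lay between IR64(SUB1) at 14 d and IR64(AG1) at 8 d, and between IR64 at 8 d and IR64(AG1) at 2 d. For GLK2 neighbours overlapped in 12 places and for CRY1a in 12, with the same steps at 14 and 8 d. CRY1b, with 10 overlapping places, was the only member whose days stood in order in all 16 groups. For PHYA and CRY2 all 15 neighbours overlapped, for PHYC 14 and for PHYB 13.

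As a description over the 16 group means of log2 CPM, which share the days, Pearson's r was 0.96 between GLK1 and GLK2, 0.99 between CRY1a and GLK1 and 0.93 between CRY1a and CRY1b. With the mean of each day removed, these values were 0.11, 0.63 and 0.42. PHYA had r = -0.56 with GLK1 and r = -0.08 with PHYB, and -0.52 with each of them once the day means were removed. The highest values without the day means were those of PHYB, 0.86 with GLK2 and 0.80 with CRY1b, which had been 0.74 and 0.88. PHYB, GLK2 and CRY1b each had their lowest group mean in IR64(AG1,SUB1) at 2 d, at 48.3, 0.642 and 4.11 CPM. That group has 2 libraries, 1 of them with 2 counts of GLK2, and its weight in these values was not tested.

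The genotypes differed in members at 2 d. Over the 6 pairs of genotypes, 10 of 48 tests passed the FDR threshold at 2 d, against 7.12% over all genes, and 4 were called, against 2.75%. At 4, 8 and 14 d none of 48 passed, against 1.44%, 3.81% and 2.04% over all genes, while 6, 9 and 0 had an unadjusted p under 0.05 (edgeR). With DESeq2, 1, 0 and 0 passed on these days. The pairs share groups, so the 10 are not independent of each other.

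GLK2 was lower in the pyramided line at 2 d than in each of the other genotypes, which gave 3 of the 4 calls. It had 1.1 and 0.145 CPM in IR64(AG1,SUB1), from 13 and 2 counts. It had 2.92, 1.55 and 2.36 CPM in IR64(SUB1), 2.49, 2.54 and 2.2 CPM in IR64(AG1), and 1.88, 4.18 and 3.04 CPM in IR64. The pyramided line did not overlap any other genotype.

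The log2 fold change of GLK2 in IR64(AG1,SUB1) was -1.96 against IR64(SUB1) (standard error 0.57, FDR 0.023), -1.99 against IR64(AG1) (standard error 0.57, FDR 0.0192) and -2.29 against IR64 (standard error 0.55, FDR 0.00548, edgeR). All 3 calls were lost without the library of 2 counts, replicate 3, with values of -1.04 (FDR 0.378), -1.08 (FDR 0.346) and -1.37 (FDR 0.184), and when only the groups compared entered the fit (lowest FDR 0.0812), and that against IR64(SUB1) also without replicate 1 of IR64(SUB1) (FDR 0.102). Replicate 3 of the pyramided line at 2 d also had the fewest genes detected of all 45 libraries, 21560.

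The other call at 2 d was GLK1, which was lower in IR64(SUB1) than in IR64(AG1). It had 0.292, 0.258 and 0.608 CPM in IR64(SUB1), from 6, 3 and 9 counts, against 1.52, 2.38 and 1.60 CPM in IR64(AG1), from 28, 29 and 24 counts. The groups did not overlap, and the log2 fold change was -2.2 (standard error 0.51, FDR 0.0041, edgeR), with FDR values of 2.48e-05 to 0.0468 over 12 alternatives. The pyramided line, at 0.614 and 0.940 CPM, and IR64, at 0.323, 0.315 and 1.31 CPM, lay between these levels or overlapped the lower one. Against IR64, IR64(AG1) had a log2 fold change of 1.48 in GLK1 (FDR 0.104, edgeR). It was called with DESeq2 (FDR 0.0114) and without replicate 3 of IR64, the library at 1.31 CPM (2.46, FDR 0.0184).

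Among the phytochromes at 2 d, PHYB was lower in the pyramided line and PHYA was lower in IR64(AG1). PHYB had 46.3 and 50.3 CPM in IR64(AG1,SUB1), against 70.3, 63.5 and 59.8 CPM in IR64(SUB1), 70.7, 81.1 and 68.6 CPM in IR64(AG1), and 69.9, 72 and 64.3 CPM in IR64, with no overlap. It fell by 0.42 on the log2 scale against IR64(SUB1) (FDR 0.00467, and 0.0759 without replicate 2 of the pyramided line), by 0.60 against IR64(AG1) (FDR 6.54e-05) and by 0.51 against IR64 (FDR 0.00062, edgeR). At 4 d, PHYB had 68.2 and 74.2 CPM in the pyramided line, inside the range of the other genotypes.

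PHYA had 27.9, 28.8 and 32.8 CPM in IR64(AG1) at 2 d, against 46.2, 46.9 and 44.7 CPM in IR64, without overlap. The log2 fold change was -0.62 (standard error 0.12, FDR 0.00173, edgeR). In IR64(AG1,SUB1), PHYA had 45.5 and 43.0 CPM, higher than in IR64(AG1) by 0.57 on the log2 scale (FDR 0.00447, edgeR), and next to the 44.7 to 46.9 CPM of IR64. CRY1b was lower in the pyramided line than in IR64(AG1), with a log2 fold change of -0.69 (FDR 0.04) that missed the threshold in 6 of 11 alternatives. It was -0.32 (FDR 0.495) without replicate 2 of the pyramided line, which had 2.81 and 5.42 CPM, and -1.27 (FDR 0.00411) without replicate 3.

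**Figure D3:**
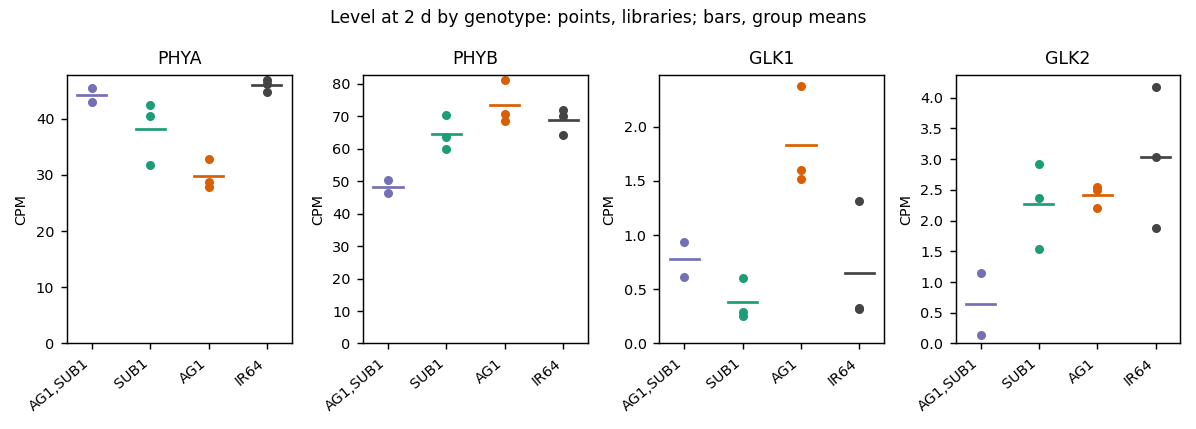
Level at 2 d of PHYA, PHYB, GLK1 and GLK2 in CPM by genotype, from the pyramided line on the left to IR64 on the right. Points are libraries and bars group means, and PHYB and GLK2 are lowest in the pyramided line (46.3 and 50.3 CPM, and 1.1 and 0.145 CPM) while PHYA is lowest in IR64(AG1).

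Compared with IR64 over the 4 days, IR64(AG1) had 0 of 32 calls, against 1.09% over all genes, and IR64(SUB1) had 0 of 32, against 1.65%. At an unadjusted p under 0.05 these comparisons had 7 and 8 tests, and with DESeq2 they had 1 and 0 calls. The pyramided line had 1 call against IR64, 1 against IR64(AG1) and 1 against IR64(SUB1), against 2.01%, 2.05% and 2.01% over all genes, all of them GLK2 at 2 d. IR64(SUB1) had 1 call against IR64(AG1), GLK1 at 2 d, against 1.24%. At 14 d, the highest group mean of GLK1 was 1.26 times the lowest, and the 95% intervals of its 6 genotype differences lay between -0.76 and 0.70 on the log2 scale.

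Whether the effect of a locus differed in the presence of the other was asked with the interaction of AG1 and SUB1, the pyramided line plus IR64 minus both single-locus lines on the log2 scale. Of 32 tests 5 passed the FDR threshold, against 5.17% over all genes, and 1 was called, against 3.05%. At 8 d, 3 of the 8 members passed, all below 0, against 6.19% below 0 over all genes. GLK2 was the called one, with an interaction of -1.18 (standard error 0.35, FDR 0.0213), GLK1 had -0.94 (standard error 0.33, FDR 0.0494) and CRY1b had -0.67 (standard error 0.23, FDR 0.0472, edgeR). With the replicate number as a block GLK1 missed the FDR threshold.

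In levels, GLK2 at 8 d averaged 23.4 ± 3.96 CPM (SD, n = 3) in IR64(AG1,SUB1), 33.3 ± 4.20 CPM (SD, n = 2) in IR64(SUB1), 31.8 ± 6.95 CPM (SD, n = 3) in IR64(AG1) and 20.1 ± 4.08 CPM (SD, n = 3) in IR64. GLK1 at 8 d averaged 25.9 ± 3.13 CPM in IR64(AG1,SUB1), 32.1 ± 6.54 CPM in IR64(SUB1), 32.4 ± 6.42 CPM in IR64(AG1) and 20.9 ± 4.97 CPM in IR64. Every library of the single-locus lines lay above every IR64 library for both genes. The single steps did not pass the FDR threshold, with log2 fold changes of 0.62 for GLK1 and 0.73 for GLK2 in IR64(SUB1) against IR64 (FDR 0.11 and 0.0745) and of 0.63 for GLK1 and 0.67 for GLK2 in IR64(AG1) against IR64 (FDR 0.0787 and 0.0865, edgeR).

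CRY1b at 8 d had 18.1, 12.8 and 17.4 CPM in IR64(AG1,SUB1), 21.9 and 21.8 CPM in IR64(SUB1), 18.4, 20.1 and 20.4 CPM in IR64(AG1), and 12.9, 18.7 and 18.6 CPM in IR64. Replicate 1 of IR64 had the lowest value of that group at 8 d in GLK1, GLK2, CRY1b, PHYB and PHYC. Without it the interaction was -0.998 for GLK2 (FDR 0.0832), -0.72 for GLK1 (FDR 0.185) and -0.48 for CRY1b (FDR 0.201). Leaving out IR64(AG1) replicate 3, IR64(SUB1) replicate 2 or IR64(AG1,SUB1) replicate 2 also ended the GLK2 call, with FDR values of 0.0783, 0.102 and 0.0682, and in 9 of 17 alternatives GLK1 and CRY1b missed the FDR threshold. GLK1 passed the fold threshold as well, and so was called, with RLE scaling (-1.01, FDR 0.0368) and with DESeq2 (-1.01, FDR 0.0365).

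**Figure D4:**
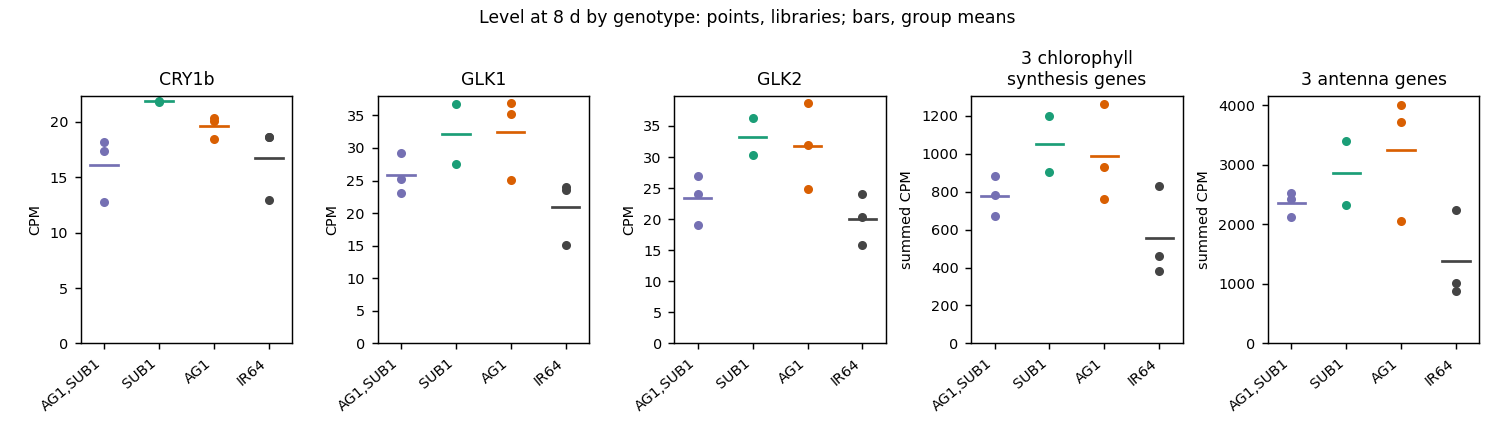
Level at 8 d of CRY1b, GLK1 and GLK2 in CPM, and summed CPM of 3 chlorophyll synthesis genes and 3 antenna genes, by genotype from the pyramided line on the left to IR64 on the right. Points are libraries and bars group means. The bars of both single-locus lines stand above those of the pyramided line and IR64 in each panel, as for GLK2 at 33.3 and 31.8 CPM against 23.4 and 20.1 CPM.

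The other 2 interactions past the FDR threshold were those of the phytochromes at 2 d. PHYA had 0.84 (standard error 0.18, FDR 0.00404, at most 0.0225 over 17 alternatives) and PHYB had -0.51 (standard error 0.13, FDR 0.0157, edgeR), which missed the threshold in 6 of 17 alternatives with an FDR of at most 0.0869.

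Other genes of light signalling and greening were read from lists. Only identifiers whose description was found in the datasets of the study, which were at hand in part, could be named. This left 2 of 10 light-signalling genes, 3 of 11 of chlorophyll synthesis and 3 of 9 of the antenna. Most of those descriptions come from lists of genes that the study chose on these samples. The lists are therefore not independent evidence of a direction, and their shares of calls are not a like comparison with those over all genes. Single tests of listed genes, unlike those of members, were not repeated with a library left out.

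PIL15 (OS01G0286100), a PIF-like factor, and an HY5-like bZIP factor (OS02G0203000) moved in opposite directions between 4 and 8 d in all 4 genotypes. PIL15 was at 16.9 to 29.0 CPM over the 11 libraries at 8 d, against 52.7 to 65.5 CPM over the 11 at 4 d. It fell by 1.23 on the log2 scale in IR64(AG1,SUB1), by 1.60 in IR64(SUB1), by 1.31 in IR64(AG1) and by 1.41 in IR64 (highest FDR 5.53e-10, edgeR). The HY5-like gene was at 13.2 to 21.1 CPM at 8 d, against 0.967 to 3.69 CPM at 4 d, with log2 fold changes of 3.07 in IR64(AG1,SUB1), 3.18 in IR64(SUB1), 2.61 in IR64(AG1) and 2.81 in IR64. Between 8 and 14 d neither was called in any genotype.

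At 2 d the HY5-like gene was higher in the pyramided line than in IR64(AG1) and IR64. It had 5.44 and 6.79 CPM in IR64(AG1,SUB1) and 6.37, 2.83 and 5.47 CPM in IR64(SUB1), which overlapped, against 2.44, 2.87 and 2.73 CPM in IR64(AG1) and 2.21, 2.60 and 3.39 CPM in IR64. The log2 fold change of the pyramided line was 1.2 against IR64(AG1) (FDR 0.0106) and 1.17 against IR64 (FDR 0.0122, edgeR). The pyramided line has 2 libraries at 2 d, and these tests were not repeated without either of them. From 2 to 4 d the HY5-like gene was called lower in the pyramided line, with 2.05 and 1.77 CPM at 4 d and a log2 fold change of -1.70 (FDR 0.000621), and in IR64(SUB1), with 1.51, 2.31 and 2.15 CPM at 4 d and -1.35 (FDR 0.000519). Over all genes 3.71% were called lower, which for these lists is not a like comparison. The change was 0.10 in IR64(AG1) and -0.20 in IR64, neither past the threshold (FDR 0.894 and 0.711), and the difference from IR64 in this change did not pass in the pyramided line (-1.5, FDR 0.118) or in IR64(SUB1) (-1.16, FDR 0.3, edgeR).

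All 3 chlorophyll synthesis genes, GUN4 (OS11G0267000), CHLH (OS03G0323200) and CRD1 (OS01G0279100), were called higher at 8 d than at 4 d in all 4 genotypes. Over all genes 23.3% were called higher in this interval, which for these lists is not a like comparison. The median log2 fold change of the 3 chlorophyll synthesis genes was 3.17 in IR64(AG1,SUB1), 4.23 in IR64(SUB1), 4.14 in IR64(AG1) and 3.80 in IR64, against 0.09, 0.05, 0.07 and 0.09 over all genes tested. Between 8 and 14 d, 1 of the 3 was called, CHLH in IR64, with a log2 fold change of 1.06 (FDR 0.00321), against 13.4% called higher over all genes. Its mean went from 189 to 395 CPM in IR64 and from 273 to 529 CPM in IR64(AG1,SUB1). It went from 368 to 486 CPM in IR64(AG1) and from 424 to 338 CPM in IR64(SUB1). No line was called as differing from IR64 in this change, so the rise was not shown to be particular to IR64. CHLH encodes a subunit of magnesium chelatase, GUN4 activates that enzyme, and CRD1 is a subunit of the cyclase that follows.

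The 3 antenna genes, a type I CAB gene (OS01G0720500), CAB2R (OS01G0600900) and a type III LHC-I gene (OS02G0197600), summed to 1.58 to 9.79 CPM at 2 d, 0.846 to 11.7 CPM at 4 d, 888 to 4010 CPM at 8 d and 1922 to 7193 CPM at 14 d. Reads of near-identical CAB copies could be split between them by the counting. At 4 d the type I CAB gene had 6.65, 9.69 and 11.3 CPM in IR64(SUB1), against 2.42, 0.692 and 1.73 CPM in IR64, a log2 fold change of 2.44 (FDR 0.00791, edgeR). It was the only 1 of the 3 antenna genes called there, and the others were near the floor. CAB2R averaged 0.0563 against 0.0256 CPM, and the LHC-I gene 0.126 against 0.0256 CPM. The type I CAB gene already stood higher at 2 d, with means of 7.85 CPM in IR64(SUB1) and 1.56 CPM in IR64. At 4 d GLK1 and GLK2 did not pass in the same comparison, with log2 fold changes of 1.01 (FDR 0.504) and 0.50 (FDR 0.766).

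At 8 d, all 3 antenna genes were called higher in IR64(AG1) than in IR64, with log2 fold changes of 1.23 to 1.25, and 1 of 3 in IR64(SUB1). Over all genes 2.52% and 3.53% were called in either direction, which for these lists is not a like comparison. The median log2 fold change of the 3 was 1.24 in IR64(AG1) and 1.04 in IR64(SUB1), the latter from 2 libraries. None was called between these 2 lines (median -0.19). Of the 3 chlorophyll synthesis genes, 0 were called higher than in IR64 in IR64(AG1) and 1 in IR64(SUB1). The interaction of the loci at 8 d was below 0 in GUN4 (-1.18, FDR 0.012), CHLH (-1.59, FDR 0.0134) and the type III LHC-I gene (-1.53, FDR 0.0101, edgeR), as it was in GLK1, GLK2 and CRY1b. Thus 2 of the 3 chlorophyll synthesis genes and 1 of the 3 antenna genes were called. Over all genes 3.76% were called below 0, again not a like comparison for genes named mostly from lists chosen on these samples. The remaining chlorophyll synthesis gene, CRD1, had -1.05 and did not pass (FDR 0.0892). The other antenna genes had -1.51 each and did not pass (FDR 0.0566 for the type I CAB gene and 0.0503 for CAB2R).

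**Figure D5:**
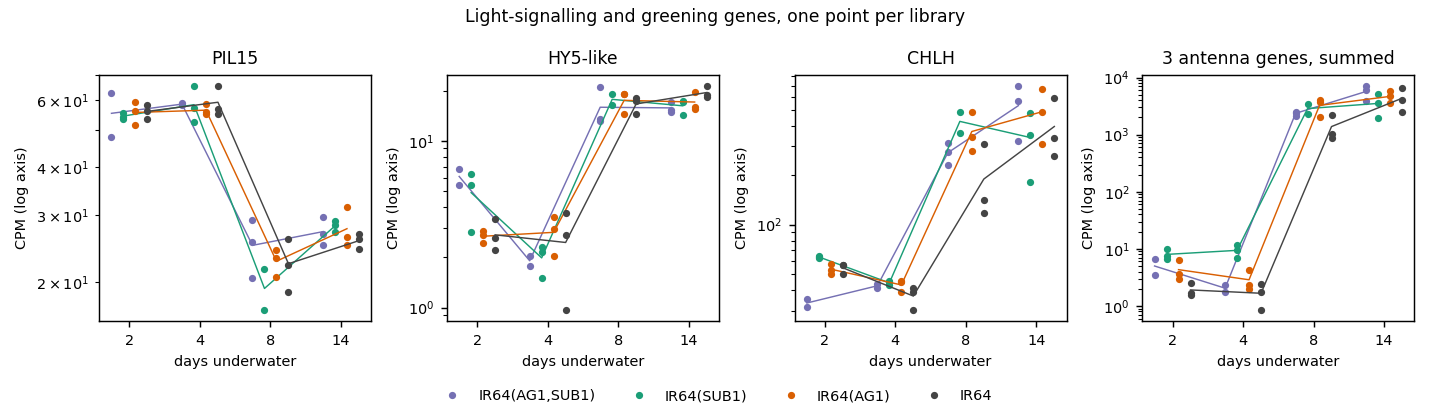
Level of PIL15, the HY5-like gene, CHLH and the sum of 3 antenna genes in CPM on log axes, on 2, 4, 8 and 14 d underwater. Points are libraries and lines join group means, and PIL15 stands at 16.9 to 29.0 CPM at 8 d, below its 52.7 to 65.5 CPM at 4 d, while the antenna sum is at 888 to 4010 CPM at 8 d, above its 0.846 to 11.7 CPM at 4 d.

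The genes most like each member over the 16 group means were taken from the 3233 tested genes with a description. The descriptions at hand are partial, and 16 of the 24 genes found have identifiers of chromosome 1. For GLK1 the nearest were a gene of unknown function (OS01G0692300, r = 0.995), a CRR23-like gene (OS05G0348100, r = 0.993) and a nucleus-encoded chloroplast protein (OS02G0152900, r = 0.99). For GLK2 they were a gene with no named product (OS03G0128200), an ATP synthase-like gene (OS02G0750100) and one similar to sedoheptulose-1,7-bisphosphatase (OS04G0234600), each with r = 0.99. For CRY1a an ALBINO3-like gene (OS01G0151200) came first with r = 0.995, and for CRY1b a SecA-like gene (OS01G0321300) with r = 0.98. The members of narrow range had lower values, with a best r of 0.95 for PHYB, 0.91 for CRY2, 0.87 for PHYC and 0.80 for PHYA.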

How the data were processed

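The authors trimmed paired-end reads of strand-specific poly(A)+ libraries with trim_galore, aligned them with TopHat2 2.0.14 and Bowtie2 2.2.5 to IRGSP-1.0 with the SUB1A-1 sequence added, and deposited raw read counts on the exons of each gene. They added 5 counts in their own tests, which are not in the deposited table, and every column belongs to a sample. How the counting used strand is not given in the sources used here, so reads of overlapping genes may be split or lost. The label replicates came from repeated experiments with pooled seedlings, and p-values measure the spread between these libraries.

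Counts as deposited were filtered with filterByExpr in edgeR 4.0.16 (R 4.3.3), which kept 26180 of 35677 genes, scaled by TMM and fitted with 1 coefficient for each of the 16 groups over all 45 libraries, so that groups of 2 borrow the spread of the others. The quasi-likelihood test was adjusted over all genes tested within each of 49 contrasts. CPM use TMM library sizes, and log2 CPM for likeness have a prior count of 2. Total counts of 12256409 to 24870831 set the precision. The tests were also tried on counts simulated with the dispersions of the fitted data and 1 mean per gene for all groups. That trial held no change between days, so it did not imitate genes with few counts at 2 and 4 d only. Its outcome is not used as evidence for the calls. Alternatives were RLE scaling, no filter, 5 counts added with the likelihood ratio test, the replicate number as a block, only the groups compared, DESeq2 1.42.0, and each library left out. Figures were drawn with matplotlib 3.10.9.

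All 8 members are named, and for likeness the 3 described genes with the highest Pearson r. Members, lists and tests were chosen with earlier results of these data known. Identifiers are paired with names only where a description was found in the datasets of the study, which were at hand in part (3797 identifiers). The listed PORA, PORB, HEMA1, COP1, PHOT1a and PHOT2, 6 seed and embryo markers and 1 meristem marker were not paired there and are not reported here. Values of GUN4, CRD1, the LHC-I gene and the type I CAB gene, and the storage protein list, were added after the counts had been seen.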

Additional observations from a re-analysis of the deposited data

Results flagged for a closer look

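Each result here is a difference between genotypes in the effect of a locus or of time that passed an FDR of 0.05 in the edgeR interaction test. At 2 d the interaction of AG1 and SUB1 was 0.84 for PHYA and -0.51 for PHYB on the log2 scale. PHYA had FDR values of 0.000232 to 0.0225 over 17 alternatives, so that it passed in each of them, while PHYB had 0.0122 to 0.0869 and missed the threshold in 6. PHYA averaged 44.3 CPM in IR64(AG1,SUB1), 38.2 CPM in IR64(SUB1), 29.8 CPM in IR64(AG1) and 45.9 CPM in IR64 at 2 d.

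At 8 d the interaction was -0.67 for CRY1b, -0.94 for GLK1 and -1.18 for GLK2. The FDR ran from 0.01 to 0.201 for CRY1b, from 0.0189 to 0.254 for GLK1 and from 0.00862 to 0.102 for GLK2 over 17 alternatives each, and missed the threshold in 9, 9 and 4 of them. The change of CRY1b from 4 to 8 d was larger in IR64(SUB1) than in IR64 by 0.93 on the log2 scale, with FDR values of 0.00539 to 0.209 and 11 of 17 alternatives past 0.05. No group has the 4 samples that a search for outlying libraries needs.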

How the results depend on the processing

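Of the 66 tests of a member that passed an FDR of 0.05, 49 passed in every alternative, 17 were lost in at least 1 and 0 turned direction. Calls are counts of tests past both thresholds, and the cause of each shift was not tested. Calls in the interaction of AG1 and SUB1 were 2 with RLE scaling and 2 with DESeq2, against 1, and IR64(AG1) against IR64 had 1 with DESeq2, against 0. With only the groups compared in the fit, the pyramided line had 0 calls against IR64(SUB1), 0 against IR64(AG1) and 0 against IR64, against 1 each, and 31 of 32 tests could be fitted in some comparisons. Leaving out 1 library in turn gave 3 to 4 calls between 2 and 4 d, 13 to 14 between 4 and 8 d, 15 to 16 between 8 and 14 d, 0 to 2 in the interaction of the loci and 0 to 1 in lines against IR64 over time. It gave 0 to 1 calls for the pyramided line against IR64(SUB1), 1 to 1 against IR64(AG1) and 0 to 1 against IR64. The call against IR64(AG1) was GLK2, except that without replicate 3 of the pyramided line at 2 d GLK2 was lost (FDR 0.346) and CRY1b was called (-1.27, FDR 0.00411). The range was 0 to 1 for IR64(AG1) against IR64, 0 to 0 for IR64(SUB1) against IR64, and 1 to 1 for IR64(SUB1) against IR64(AG1). Libraries share replicate numbers. The deviations of same-numbered libraries from their group means had a correlation over 0.1 in 0 of 15 pairs at 2 d, 0 of 15 at 4 d, 9 of 15 at 8 d (median 0.115, highest 0.274) and 8 of 18 at 14 d. As this was not every pair on any day, the main fit did not treat the libraries as paired. That rule does not show them to be independent, and at least at 8 and 14 d part of the deviation went with the number. A library correlated best with its own number in 19 of 30 pairings with another genotype at 2 d, 17 of 30 at 4 d, 25 of 30 at 8 d and 21 of 36 at 14 d. On each day this was more often than an even choice among the libraries of the other genotype would give. With the number as a replicate block, members had 3, 13 and 16 calls between successive days, 1 in the interaction of the loci and 0 in lines against IR64 over time, as without it, and the calls between genotypes did not change either, at 0, 0, 1, 1, 1 and 1, while the FDR of GLK1 in the interaction at 8 d was 0.0588 and that of CRY1b in IR64(SUB1) against IR64 between 4 and 8 d was 0.0507. Over all genes the block moved the calls between 4 and 8 d to 34035, against 34231. RLE scaling moved 28 of 128 group means of members by 1 SD or more. Low counts limit GLK1 and GLK2 at 2 and 4 d, where libraries held as few as 2 counts of GLK2.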

Other observations

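At 14 d, GLK1 and GLK2 were lowest in replicate 3 among the 3 libraries of all 4 genotypes, and so were CHLH, CRD1, the type I CAB gene, CAB2R and the type III LHC-I gene. This was noticed in the values and is given with no test. Of the 26180 genes tested, 1620 (6.19%) were lowest in replicate 3 in all 4 genotypes, and PHYA and PHYC were so in 0 of the 4. GLK2 had 54.5 CPM in replicate 3 of IR64(AG1,SUB1), 58.6 CPM in that of IR64(SUB1), 65.4 CPM in that of IR64(AG1) and 53.9 CPM in that of IR64, the lowest value of each group.

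The ratio of PHYB to PHYA, which is not corrected for gene length, had a median of 1.51 on day 2, 1.78 on day 4, 2.31 on day 8 and 2.80 on day 14 over the libraries, and that of CRY1b to CRY1a had medians of 3.67, 6.72, 2.24 and 2.70 on the same days.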
